A study of Mus musculus with 8 samples.

Results

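The oxidative phosphorylation genes described here are the protein-coding genes of the deposited tables whose names start with mt-, Ndufa, Ndufb, Ndufc, Ndufs, Ndufv, Uqcr, Cox4 to Cox8 or Atp5, together with Sdha, Sdhb, Sdhc, Sdhd and Cycs, without the Ndufaf assembly factors. This rule gave 96 of 26939 genes, 13 encoded by mitochondrial DNA (named mt-) and 83 encoded in the nucleus, and used no measured value. Oxidative phosphorylation makes ATP at the inner mitochondrial membrane. Complexes I and II pass electrons to ubiquinone, complex III passes them through cytochrome c to complex IV, which reduces oxygen, and complex V (ATP synthase) uses the resulting proton gradient. All complexes but II combine core subunits from mitochondrial DNA, transcribed by a polymerase of their own, with nuclear subunits, and in macrophages the use of this pathway is known to differ between activation states.

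The RNA came from tumor-associated macrophages (TAMs) of EO771 tumors, a C57BL/6 mouse mammary cancer line, taken at day 21 by sorting live cells positive for CD45, CD11b and F4/80 and negative for Gr-1. The 4 groups had 2 libraries each and crossed the genotypes WT and Unc93b1 3d/3d with the treatments control and αMARCO. WT mice were C57BL/6J. The genotype label of Unc93b1 3d/3d control replicate 2 reads 3d/4d while its title reads 3d/3d, and the title was followed. The 3d allele of Unc93b1 blocks endosomal Toll-like receptor function in every host cell, and the injected tumor cells do not carry it. αMARCO is a rat IgG1 antibody to the scavenger receptor MARCO, given at 100 µg per dose from day 3 to day 12. The labels call the controls untreated or PBS while the treatment text names an isotype antibody, so the control injection is not settled. The study pooled several mice into each control sample, and whether the αMARCO samples were pooled is not stated, so p-values measure the spread between these libraries.

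Library totals ran from 15182618 to 26411936 counts, and 3 counts, the smallest amount taken as detected, corresponded to 0.117 to 0.205 CPM (counts divided by the scaled library total, times 1e6). Macrophage markers summed to 8567 to 13173 CPM in every library. T cell markers summed to at most 130 CPM, endothelial markers to at most 289 CPM and mature dendritic cell markers to at most 966 CPM. The Unc93b1 3d/3d αMARCO libraries stood apart from each other. The log2 difference between replicates had an SD over genes of 1.01 in that group and of 0.435 to 0.579 in the other groups, so calls and medians that use these libraries are given with and without each. Levels per length, isoform shares, counts of groups apart and counts by unadjusted P or DESeq2 were computed with both. Unc93b1 itself had 850 and 965 CPM in WT control and 539 and 659 CPM in Unc93b1 3d/3d control, which does not check the genotype, since the allele changes the protein.

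The mt- members took a larger share of the counts in WT αMARCO TAMs than in WT control TAMs, and the nuclear members took a smaller one. The 13 mt- members held 1.03% and 0.986% of all counts in the WT control libraries and 2.28% and 2.64% in the WT αMARCO libraries. The 83 nuclear members held 0.655% and 0.658% in WT control and 0.422% and 0.438% in WT αMARCO. Among Unc93b1 3d/3d controls the mt- share was 1.2% and 1.13% and the nuclear share 0.488% and 0.531%, so that the nuclear share was lower than in both WT control libraries. In Unc93b1 3d/3d αMARCO the libraries differed from each other in both directions, with an mt- share of 1.99% and 1.31% and a nuclear share of 0.420% and 0.704%. The widest 95% Wilson interval of any of these shares spanned 0.013 percentage points and covers counting error only, so the differences between replicates exceed it.

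**Figure D1:**
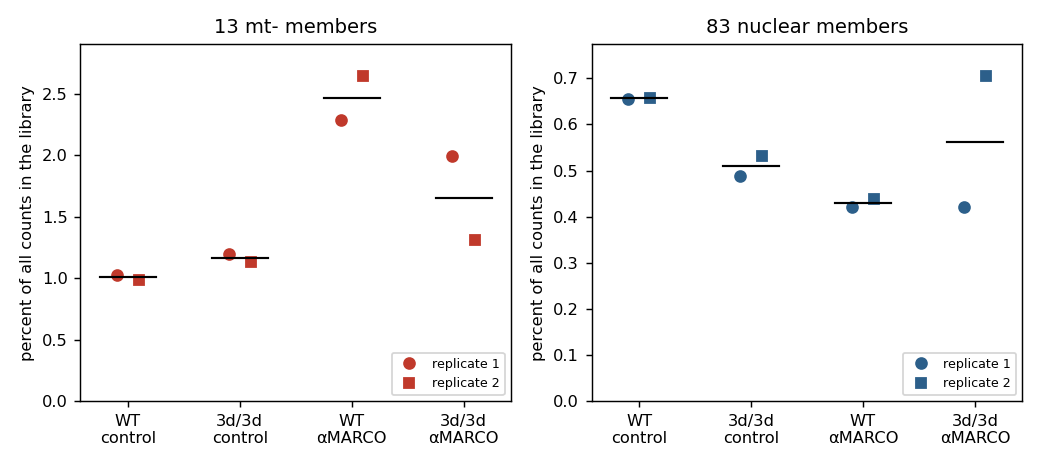
Percent of all counts held by the 13 mt- members (left) and the 83 nuclear members (right) of oxidative phosphorylation in each of 8 libraries; circles and squares are replicates 1 and 2 and the bar is the group mean. The WT αMARCO libraries have the highest mt- shares (2.28% and 2.64%), and the nuclear share of Unc93b1 3d/3d αMARCO differs between replicates (0.420% and 0.704%).

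The ratio of mt- to nuclear counts within a library needs no scaling between libraries. It was 1.54 ± 0.0533 (SD, n = 2) for WT control, 2.29 ± 0.226 for Unc93b1 3d/3d control and 5.72 ± 0.435 for WT αMARCO, with no overlap between these groups. In Unc93b1 3d/3d αMARCO it was 4.74 in replicate 1 and 1.87 in replicate 2, so that replicate 1 lay between Unc93b1 3d/3d control and WT αMARCO and replicate 2 between the control groups. The place of replicate 2 depends on the measure. The median over mt- members minus that over nuclear members, on the log2 CPM scale, was 2.34 in replicate 1 and 2.15 in replicate 2. It was 0.78 to 1.39 in the control libraries and 2.46 and 2.82 in WT αMARCO. By this measure replicate 2 lay above all controls. In every library, however, the median mt- member was mt-Nd6, with 202 CPM in replicate 1 and 364 CPM in replicate 2. The pattern of mt-Nd6 in replicate 2 was unusual, as given below, so this measure does not speak for the other mt- members. With 2 libraries a group, no exact test of these ratios was run. mt-Co1 alone held 66.9% to 72.2% of the mt- counts in every library, and without it the mean log2 ratio was 1.76 higher in WT αMARCO than in WT control, against 1.89 with it.

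The level of each member was compared per length, as CPM per kilobase of gene. Among the mt- members, mt-Co1, the catalytic core of complex IV, had the highest mean level at 7146 CPM per kilobase, followed by mt-Nd1 of complex I at 1201 and mt-Cytb, cytochrome b of complex III, at 1133. The lowest were mt-Nd4l, mt-Nd3 and mt-Atp8 at 6.59, 4.53 and 3.35 CPM per kilobase. mt-Nd1 and mt-Cytb exchanged order between libraries and are not distinguished by these levels. Among the nuclear members the highest levels were 249 CPM per kilobase for Cox8a and 246 for Cox6a1 in complex IV, 123 for Ndufa2 in complex I, 106 for Atp5b in complex V, 85.6 for Uqcr10 in complex III and 68.3 for Sdhd in complex II.

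The low mt- members lie together on the mitochondrial genome (GRCm38, chromosome MT) between mt-Co2, which starts at 7013, and mt-Nd4l, which ends at 10173. A stretch of chromosome 1 holds copies of these genes, annotated as Gm28661, Gm10925, Gm28437, Gm28438 and Gm10222. Gm28661 is identical to mt-Co2 over 681 of 681 bases, Gm10925 to mt-Atp6 over 678 of 678 and Gm28437 to mt-Co3 over 783 of 783, so reads of a gene and its copy cannot be told apart there. The counts of mt-Co2, mt-Co3, mt-Atp6, mt-Nd3 and mt-Nd4l, and of mt-Atp8 within the same stretch, are therefore uncertain. mt-Co1, in contrast, shares 492 of 1545 bases with Gm29216, with 6 differing bases. mt-Nd4 shares 876 of 1378 bases with Gm28439, with 0 differing bases, so part of its count is uncertain too. The mitochondrial genes also overlap each other, and the ends of mt-Atp8 (chrMT:7910-7969, + strand) and the start of mt-Atp6 (chrMT:7927-7986, + strand) are shown because a read in the 43 shared bases, in capitals, belongs to both:
mt-Atp8: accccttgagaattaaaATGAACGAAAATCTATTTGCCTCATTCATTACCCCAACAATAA
mt-Atp6: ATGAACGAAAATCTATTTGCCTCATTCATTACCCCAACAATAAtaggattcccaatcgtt
mt-Nd4l and mt-Nd4 share 7 bases in the same way. mt-Nd6 is encoded on the strand opposite to the other 12 and overlaps the end of mt-Nd5, and the use of strand in counting was not stated.

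Nuclear subunits that exist as isoforms of different genes were measured mainly through the form found in most tissues. Cox4i1 made up 97.6% to 99.1% of the summed CPM per kilobase of Cox4i1 and Cox4i2, whose Cox4i2 form is known from lung and low oxygen. Cox6a1 made up at least 98.3% of its pair with the muscle form Cox6a2, Cox6b1 at least 99.1% of its pair with Cox6b2, and Ndufa4 at least 97.7% of its pair with Ndufa4l2, which hypoxia is known to induce. Cox7a2l, Cox7a2 and the muscle form Cox7a1 had 57.1% to 66.5%, 31.4% to 40.3% and 1.38% to 3.03% of their sum. Cox7a2l was grouped with them by name only, so its share does not make it the main form of this subunit. The mature c subunit of the ATP synthase rotor is the same from Atp5g1, Atp5g2 and Atp5g3, of which Atp5g3 gave 42.0% to 48.9%, Atp5g2 42.6% to 49.0% and Atp5g1 7.33% to 10.4%, so Atp5g2 and Atp5g3 are not distinguished in level. Cox8b had 4 counts in 1 WT control library and 0 in the others. It was listed in 1 of the 3 tables and was tested nowhere. Low counts also kept mt-Atp8 out of the comparisons with Unc93b1 3d/3d control, mt-Nd3 out of αMARCO against control in Unc93b1 3d/3d, and Ndufa4l2 out of the comparisons with WT αMARCO, each fitted on 4 libraries.

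In WT mice, αMARCO against control asks how the treatment relates to TAM expression where endosomal Toll-like receptors function. mt-Co1 had 6915 and 6791 CPM in WT control and 15908 and 19195 CPM in WT αMARCO. mt-Nd1 had 816 and 733 CPM against 1610 and 2009 CPM, and mt-Cytb 977 and 900 CPM against 1790 and 2213 CPM. In all 3 genes both αMARCO libraries lay above both control libraries, with replicate 2 the higher. mt-Nd5 had 528 and 486 CPM against 1072 and 1218 CPM, mt-Nd4 483 and 439 CPM against 949 and 1185 CPM, and mt-Nd2 433 and 419 CPM against 799 and 1038 CPM. These core subunits of complex I, which form its proton-pumping membrane arm, were also apart in every library. mt-Nd6, from the other strand, had 116 and 111 CPM against 234 and 327 CPM. The groups lay apart with αMARCO higher in all 13 mt- members, beside 34.6% of all tested genes.

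Calls required both a Benjamini-Hochberg adjusted P no higher than 0.05, over 15630 tested genes in edgeR's quasi-likelihood test, and a log2 fold change of 0.5 or more in either direction. Of the 13 mt- members 11 were called higher and 0 lower in WT αMARCO, where 8.91% of all tested genes were called higher. Their median log2 fold change was 1.11, beside -0.012 over all tested genes. mt-Co1 rose 2.56-fold (log2 fold change 1.36, SE 0.133, adjusted P = 0.000165), mt-Nd6 rose 2.47-fold (1.31, SE 0.145, adjusted P = 0.000955) and mt-Nd1 rose 2.34-fold (1.22, SE 0.119, adjusted P = 0.00016). mt-Nd4, mt-Nd5, mt-Nd2, mt-Cytb and mt-Nd3 rose by 1.21, 1.18, 1.11, 1.09 and 1.08 on the log2 scale. mt-Atp8 and mt-Atp6, both subunits of ATP synthase, rose by 2.52 (SE 0.639) and 0.82, and mt-Co3 rose by 0.73. mt-Atp8 had 4 and 5 counts in WT control and 18 and 50 in WT αMARCO, and mt-Nd3 had 42 and 24 against 62 and 115, so their sizes are uncertain. mt-Atp8 lost its call without WT αMARCO replicate 2, mt-Co3 without WT αMARCO replicate 1, and mt-Nd3 without 3 of the 4 libraries, one at a time.

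mt-Co2 and mt-Nd4l were not called. mt-Co2 had 33.6 and 31.2 CPM in WT control and 40.4 and 44.7 CPM in WT αMARCO, a log2 fold change of 0.39 (edgeR adjusted P = 0.0113) that is below the fold threshold. mt-Nd4l had a log2 fold change of 0.58 (adjusted P = 0.202) at 29 to 77 counts per library. Both lie in the stretch copied on chromosome 1. The mitochondrial ribosomal RNAs mt-Rnr1 and mt-Rnr2, which are no members, had log2 fold changes of 1.13 and 1.08 (edgeR adjusted P = 0.000228 and 6.94e-05).

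The nuclear members went the other way. Uqcr10, a small subunit of complex III (chr11:4701973-4704342, - strand), had 67.2 and 72.0 CPM in WT control and 31.1 and 34.1 CPM in WT αMARCO. Ndufa4 (chr6:11900292-11907497, - strand), named as a complex I subunit but known to sit in complex IV, had 67.9 and 75.3 CPM against 32.6 and 35.7 CPM. Atp5k (chr5:108433244-108434448, - strand), the e subunit of ATP synthase that holds its dimers together, had 36.0 and 37.6 CPM against 15.9 and 19.9 CPM. The groups lay apart in all 3, which the choice of these genes required, and the replicates of a group differed by less than the groups. Cox7b and Cox8a, small subunits of complex IV, had 94.7 and 100.0 CPM against 47.3 and 54.7 CPM, and 177.7 and 195.8 CPM against 97.4 and 111.4 CPM.

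Of 81 nuclear members tested, 54 were called lower and 0 higher in WT αMARCO, where 11.8% of all tested genes were called lower. A further count by adjusted P alone gave 69 lower and 0 higher, beside 19.0% of all tested genes lower. The groups lay apart with αMARCO lower in 74 of the 81, beside 36.2% of all tested genes. The median log2 fold change was -0.60, with a range from -1.09 to -0.05, so that all 81 had a value below 0. Uqcr10 fell by 1.09 (SE 0.0909, adjusted P = 8.7e-05), Ndufa4 by 1.07 (SE 0.094, adjusted P = 0.000109) and Atp5k by 1.03 (SE 0.121, adjusted P = 0.000366) on the log2 scale. Cox7b and Cox8a fell by 0.93 and 0.84. In 1 model of all 8 libraries 4 mt- members were called higher and 0 nuclear members lower, among 164 of 16620 genes called in all. In 1 model without the Unc93b1 3d/3d αMARCO libraries these counts were 10 and 54, among 3178 of 16326 genes called.

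Every complex had called nuclear members. In complex I, 22 of 35 tested members were called lower (median log2 fold change -0.59), in complex III 6 of 8 (median -0.73), in complex IV 11 of 17 (median -0.71) and in complex V 12 of 16 (median -0.55). Complex II, the succinate dehydrogenase shared with the TCA cycle and the only complex without an mt- subunit, had 2 of 4 called lower (median -0.46). Its membrane anchors Sdhc and Sdhd fell by 0.50 and 0.69. Its flavoprotein Sdha and iron-sulfur protein Sdhb had log2 fold changes of -0.42 and -0.38 and passed the adjusted P (0.00291 and 0.00461 by edgeR) but not the fold threshold. Whether complexes differed from each other was not tested.

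Catalytic subunits of the other complexes were mixed. Uqcrfs1, the Rieske iron-sulfur protein of complex III, fell by 0.74, Atp5b, the catalytic beta subunit of ATP synthase, fell by 0.63 and the electron carrier Cycs fell by 0.58. Ndufv1, which binds NADH in complex I, had a log2 fold change of -0.37 (edgeR adjusted P = 0.00772), below the fold threshold. Ndufs1, the largest iron-sulfur subunit of complex I, had 52.1 and 55.6 CPM in WT control and 50.5 and 52.7 CPM in WT αMARCO, with a log2 fold change of -0.06 (SE 0.0857, adjusted P = 0.609). Of the isoforms, and of Cox7a2l grouped with them by name, Cox4i1, Cox6a1, Cox6b1, Cox7a2l, Atp5g1, Atp5g2 and Atp5g3 fell by 0.77, 0.58, 0.74, 0.73, 0.76, 0.83 and 0.74. The scarce Cox4i2, Cox6a2, Cox6b2, Cox7a1 and Cox7b2 were not called, at 0.117 to 3.16 CPM in the WT libraries. Atp5a1, the alpha subunit, had 9.18 to 24.1 CPM in the WT libraries beside 364 to 596 CPM for Atp5b, and Uqcrc1 had 6.62 to 23.3 CPM beside 46.6 to 86.9 CPM for Uqcrfs1. Replicates of Atp5a1 and Uqcrc1 also differed widely, so both are taken as uncertain.

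**Figure D2:**
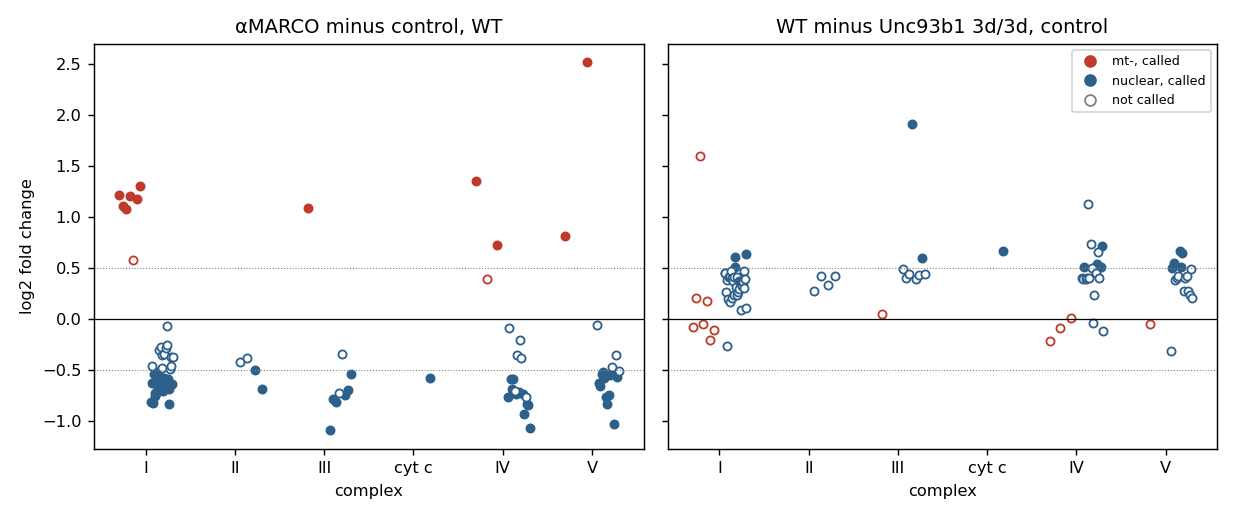
Log2 fold change of each tested member by complex, for αMARCO minus control in WT (left) and WT minus Unc93b1 3d/3d in control TAMs (right); red is mt-, blue is nuclear, filled points were called, and dotted lines mark a log2 fold change of 0.5 in either direction. On the left 11 of 13 mt- members are called above 0 and 54 of 81 nuclear members below 0, and on the right 15 of 82 nuclear members are called, all above 0.

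The size of the nuclear difference went with gene length. Across the 81 nuclear members, Spearman's rho between gene length and log2 fold change was 0.47, beside 0.14 across all 15630 tested genes, given as a description across genes that share the same libraries. The 27 shortest members (419 to 1131 bases) had a median of -0.70 with 19 called lower, the 27 between (1147 to 2181 bases) a median of -0.63 with 24 called lower, and the 27 longest (2239 to 8086 bases) a median of -0.46 with 11 called lower. With each library corrected for gene length and GC content, 43 nuclear members were called lower, with a median of -0.57, and 9 mt- members were called higher with a median of 0.94. In that fit 2958 of 15630 genes were called in all. The mt- members had a median length of 784 bases, against 1550 for the nuclear members, and a median GC content of 37.1% against 50.2%.

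**Figure D3:**
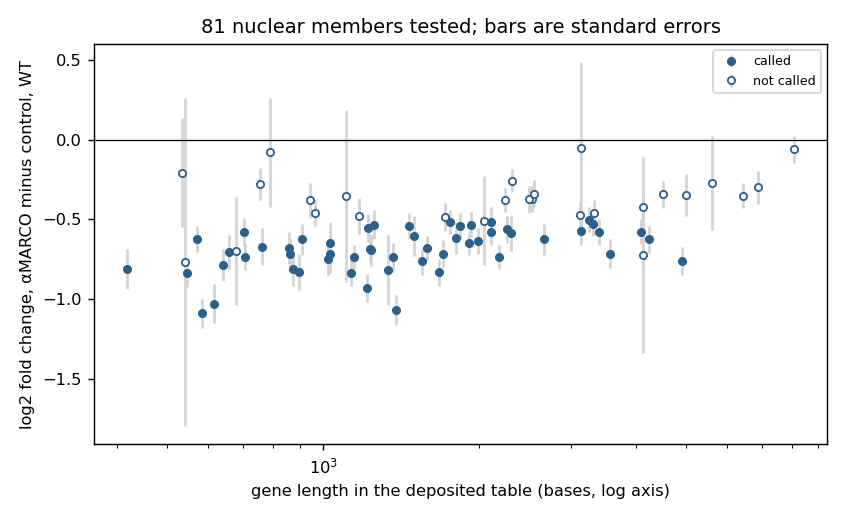
Log2 fold change of αMARCO minus control in WT against gene length (log axis) for the 81 nuclear members tested; filled points were called and bars are standard errors. The 27 shortest members have a median of -0.70 and the 27 longest a median of -0.46.

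Levels of other RNAs moved with this comparison. Summed T cell markers were 115 to 130 CPM in WT control and 14.1 to 24.5 CPM in WT αMARCO, with 10 of 10 called lower, summed mature dendritic cell markers were 537 to 966 CPM and 131 to 157 CPM, with 5 of 6 called lower, and none of these T and dendritic cell markers was at 0 in either group. Summed proliferation markers were 725 to 822 CPM and 540 to 555 CPM, with 6 of 8 called lower, and summed macrophage markers 12137 to 13173 CPM and 9370 to 9942 CPM, with 1 called higher and 4 lower of 11 genes tested (median log2 fold change -0.16). NK cell markers summed to 84.9 to 96.8 CPM and 6.91 to 15.0 CPM, with 4 of 7 called lower, and fibroblast markers to 84.9 to 107 CPM and 24.7 to 38.0 CPM, with 3 of 6. Of cDC1, endothelial, neutrophil, epithelial and B cell markers, 2 of 4, 2 of 4, 2 of 4, 2 of 3 and 1 of 4 were called lower and 0 higher. The nuclear-retained RNAs Malat1 and Neat1 had log2 fold changes of 0.57 and 1.63 in WT αMARCO (edgeR adjusted P = 0.0109 and 2.23e-05). The part of these cells and RNAs in the change of the members was not tested. In bulk samples, fewer cells of a type and less RNA per cell cannot be told apart.

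The promoters of nuclear members are known for sites of NRF1, ETS factors such as GABP, and YY1. RefSeq windows on GRCm38.p6, from 250 bases before to 50 bases after the transcript start, were found for 69 of the 83 nuclear members in 74 windows. Both strands were searched for the 10-letter NRF1 core with its middle base left free (spelled out by the capitals in Sdha below), CCGGAAG (an ETS core) and AAGATGGC (a YY1 core), and matches of different motifs shared letters in 0 of the 74 windows. The NRF1 core was in 18 of 74 windows (24.3%) beside 4.6% of the 32851 windows searched, the ETS core in 20.3% beside 8.86% and the YY1 core in 13.5% beside 2.75%, and 33 members had none of them. Among the tested members, the median log2 fold change in WT αMARCO was -0.68 for the 17 with an NRF1 core and -0.58 for the 51 without. It was -0.58 for the 15 with an ETS core and -0.62 for the 53 without, and -0.58 for the 10 with a YY1 core and -0.63 for the 58 without. The ranges overlapped for each motif. These matches are a description of letters.

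Stretches from 150 bases before to 30 bases after the start are shown for 4 members, with motif letters in capitals: Atp5k with both NRF1 and ETS letters (chr5:108434370-108434549, - strand), Cox8a with ETS letters (chr19:7217587-7217766, - strand), Sdha with 3 NRF1 matches and no call (chr13:74350211-74350390, - strand), and Uqcr10, which fell most among nuclear members and holds none of these motifs (chr11:4704315-4704494, - strand):
Atp5k: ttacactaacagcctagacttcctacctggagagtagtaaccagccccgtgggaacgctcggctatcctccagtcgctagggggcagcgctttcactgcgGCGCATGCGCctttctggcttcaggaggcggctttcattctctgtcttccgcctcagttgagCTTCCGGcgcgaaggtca
Cox8a: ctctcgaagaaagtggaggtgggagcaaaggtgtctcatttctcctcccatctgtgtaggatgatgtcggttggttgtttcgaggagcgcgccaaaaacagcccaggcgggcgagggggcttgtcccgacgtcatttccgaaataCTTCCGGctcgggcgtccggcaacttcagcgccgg
Sdha: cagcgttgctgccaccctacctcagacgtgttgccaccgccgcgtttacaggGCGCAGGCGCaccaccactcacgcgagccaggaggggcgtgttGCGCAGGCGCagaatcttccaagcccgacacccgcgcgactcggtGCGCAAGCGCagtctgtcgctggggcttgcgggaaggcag
Uqcr10: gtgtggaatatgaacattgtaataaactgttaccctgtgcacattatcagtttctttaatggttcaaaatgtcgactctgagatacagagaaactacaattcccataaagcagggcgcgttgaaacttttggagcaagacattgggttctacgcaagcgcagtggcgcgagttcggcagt
All 81 tested nuclear members had values below 0 in WT αMARCO, so the sign cannot set members with these letters apart from those without.

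The comparison of WT with Unc93b1 3d/3d control TAMs asks how the genotype relates to the members without αMARCO. Some nuclear members were called higher in WT, 15 of 82 tested, and 0 mt- members were called. Of the 82, 78 had a value above 0 and 4 below. Ndufa4 had 67.9 and 75.3 CPM in WT control and 40.1 and 46.1 CPM in Unc93b1 3d/3d control. Cycs (chr6:50562563-50566538, - strand) had 93.7 and 101.4 CPM against 63.8 and 57.2 CPM. Atp5g1 (chr11:96068852-96075670, - strand) had 59.8 and 61.1 CPM against 34.6 and 40.7 CPM, and Atp5g3 (chr2:73908447-73911326, - strand) 163 and 157 CPM against 93.5 and 107 CPM. In all 4 genes both WT libraries lay above both Unc93b1 3d/3d libraries, which the choice of these genes required.

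Beside these 15 of 82 nuclear members, 0 were called lower, where 6.58% of 15600 tested genes were called higher and 6.40% lower. By adjusted P alone, 51 were higher and 0 lower, beside 10.2% of tested genes higher and 8.60% lower. The groups lay apart with WT higher in 74 of the 82 and lower in 0, beside 33.3% and 29.8% of tested genes. The median log2 fold change was 0.41, beside -0.004 over all tested genes, which is under the fold threshold. Ndufa4 was 1.64-fold higher in WT (log2 fold change 0.71, SE 0.11, adjusted P = 0.00314), Cycs 1.59-fold (0.67, SE 0.102, adjusted P = 0.00294), Atp5g1 1.59-fold (0.67, SE 0.111, adjusted P = 0.00455) and Atp5g3 1.57-fold (0.65, SE 0.0994, adjusted P = 0.00294). Uqcrc1 had the largest difference, 1.92 (SE 0.367, adjusted P = 0.0145), from 11.6 and 23.3 CPM against 5.33 and 3.8 CPM, and it lost its call without either Unc93b1 3d/3d control library.

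The called nuclear members were 3 of 35 in complex I, 0 of 4 in complex II, 2 of 8 in complex III, 4 of 18 in complex IV, 5 of 16 in complex V, and Cycs, beside the 6.58% of all tested genes. The share in complex I was near that of all genes. Medians were alike, at 0.38 for complex I, 0.38 for complex II, 0.45 for complex III, 0.43 for complex IV and 0.42 for complex V. Sdhb, Uqcrfs1 and Ndufv1, at 0.43, 0.44 and 0.40, passed the adjusted P (0.0127, 0.019 and 0.0246 by edgeR) but not the fold threshold, and Atp5b passed both at 0.51. Sdha, Ndufs1 and Atp5a1, at 0.28, 0.09 and -0.31, passed neither. The count of 15 depends on the fold threshold, since Cox6c at 0.50 fell just outside the call, and on single libraries. The median of the nuclear members was 0.345 and 0.455 without Unc93b1 3d/3d control replicates 1 and 2, and 0.407 and 0.427 without WT control replicates 1 and 2. In 1 model of all 8 libraries the count was 0, where 364 of 16620 genes were called in all. Without the Unc93b1 3d/3d αMARCO libraries in that model it was 16, where 2394 of 16326 genes were called.

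Among the mt- members 12 were tested and 0 were called by edgeR in either direction, while 1 had an unadjusted P below 0.05 and DESeq2 called 0. Their median log2 fold change was -0.05, with mt-Co1 at -0.21 (SE 0.113, adjusted P = 0.22), from 6915 and 6791 CPM in WT and 8036 and 7656 CPM in Unc93b1 3d/3d. mt-Nd3 had the largest value, 1.6 (SE 0.583, adjusted P = 0.0862), at 7 to 42 counts. Beside this comparison, summed T cell markers were 70.6 to 79.6 CPM in Unc93b1 3d/3d control and 115 to 130 CPM in WT control. Of 10 T cell markers, 9 were called higher in WT and 1 lower, with a median log2 fold change of 2.75, so 1 went against the sum. Mature dendritic cell markers summed to 136 to 169 CPM in Unc93b1 3d/3d control, with 3 of 6 called higher in WT and 0 lower. Neat1 had 1213 and 1403 CPM against 639 and 648 CPM in WT control. Malat1 had a log2 fold change of -0.73 (edgeR adjusted P = 0.0216). NK cell, B cell, cDC1 and endothelial markers summed to 8.62 to 28.9, 26.1 to 27.2, 23.2 to 25.7 and 97.2 to 124 CPM in Unc93b1 3d/3d control, and to 84.9 to 96.8, 111 to 155, 96.3 to 117 and 286 to 289 CPM in WT control. In these lists 2 of 8, 2 of 4, 2 of 4 and 1 of 4 tested markers were called higher in WT and 0 lower. Their median log2 fold changes were 2.05, 1.07, 1.66 and -0.17, so the endothelial median went against its sum. Fibroblast markers summed lower in WT control, at 84.9 to 107 CPM against 151 to 175 CPM, with 2 of 6 called lower and 0 higher. The part of these cells and RNAs in the difference was not tested.

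**Figure D4:**
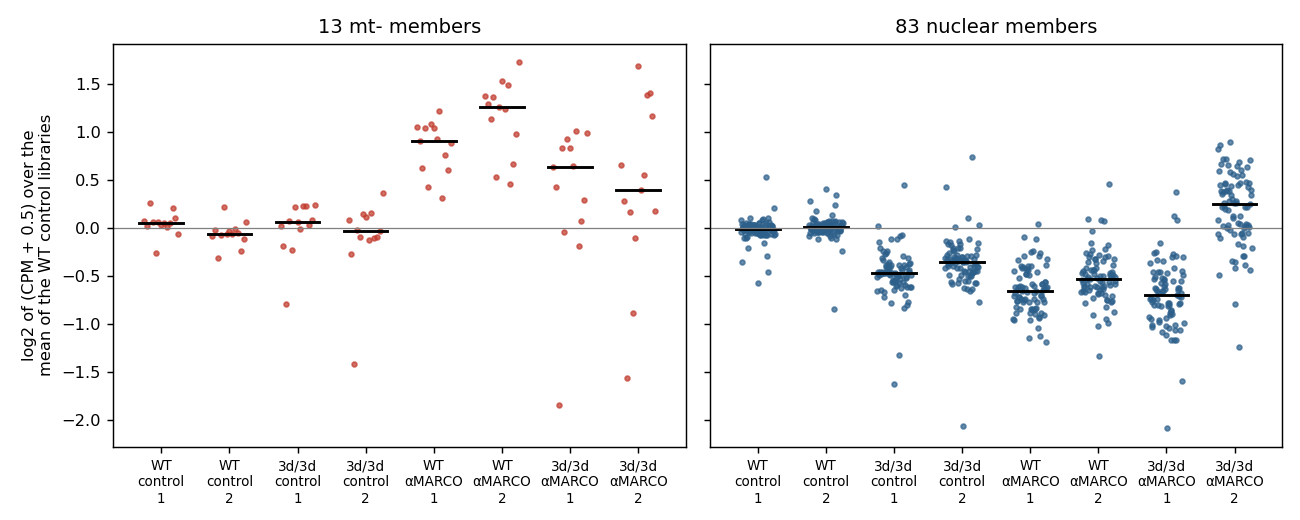
Log2 of (CPM + 0.5) over the mean of the WT control libraries for each of the 13 mt- members (left) and 83 nuclear members (right) in every library; bars are medians over members. Nuclear members lie mostly below 0 in the control libraries of Unc93b1 3d/3d and the αMARCO libraries of WT, and the Unc93b1 3d/3d αMARCO replicates lie on opposite sides of 0.

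In Unc93b1 3d/3d mice the response to αMARCO could not be read, because its replicates went in opposite directions for the nuclear members. In replicate 1, 73 of the 83 nuclear members lay below the mean of the Unc93b1 3d/3d controls, with a median log2 ratio of -0.27, and in replicate 2, 74 lay above it, with a median of 0.68. Uqcr10 had 47.8 and 49.6 CPM in control and 31.8 and 66.5 CPM under αMARCO, and Ndufa4 had 40.1 and 46.1 CPM and 31.6 and 71.4 CPM. In both genes the αMARCO replicates lay on either side of the controls. For the mt- members both replicates lay more often above, with 11 of 13 in replicate 1 (median 0.65) and 9 of 13 in replicate 2 (median 0.46). mt-Co1 had 8036 and 7656 CPM in control and 13756 and 10069 CPM under αMARCO, and mt-Nd1 had 787 and 822 CPM and 1202 and 1217 CPM, so that both genes were higher in both αMARCO libraries.

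No gene of 15428 was called in this comparison by edgeR (0% of tested genes), and DESeq2 called 60, of which 0 were members. At an unadjusted P of at most 0.05 there were 2 of 11 mt- and 1 of 82 nuclear members, beside 4.82% of tested genes. The groups lay apart with αMARCO higher in 8 of 11 mt- and 2 of 82 nuclear members (18.6% of tested genes) and lower in 0 and 2 (20.4%). The medians were 0.61 for the mt- members and 0.31 for the nuclear ones. mt-Nd6 had the smallest P of the mt- members, with a log2 fold change of 1.24 (SE 0.326, adjusted P = 0.823). Without replicate 2, 7 mt- members were called higher, beside 1.61% of tested genes, and 9 nuclear members lower, beside 1.81%. Without replicate 1, 6 mt- members were called higher and 52 nuclear members higher, beside 16.9%, and 1 nuclear member lower, beside 17.2%. In these fits the lone αMARCO library is assumed to vary like the controls.

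The mt- members also differed in pattern between these replicates. mt-Nd6 had 202 CPM in replicate 1 and 364 CPM in replicate 2, while mt-Nd5, next to it on the other strand, had 963 and 471 CPM. The ratio of mt-Nd6 to mt-Nd5 counts was thus 0.21 and 0.77, beside 0.20 to 0.27 in the other 6 libraries. mt-Co2 had 28.5 and 85.6 CPM, mt-Co3 16.3 and 41.8 CPM and mt-Atp6 21.7 and 39.9 CPM, so that these 3 genes of the stretch copied on chromosome 1 were highest in replicate 2 among all 8 libraries. mt-Nd3 and mt-Nd4l, of the same stretch, were not, at 0.274 and 0.821 CPM in replicate 2. The chromosome 1 copies summed to 81.3 and 159 CPM, beside 61.2 to 127 CPM in the other libraries. Malat1 had 3118 and 640 CPM, beside 1976 to 4165 CPM elsewhere. Whether these values have a part in the difference between the replicates was not tested.

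**Figure D5:**
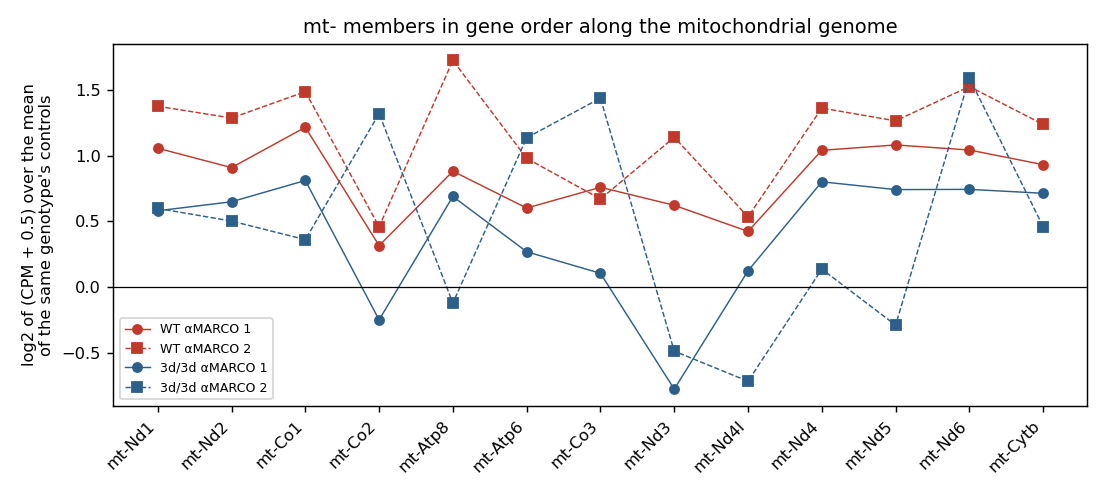
Log2 of (CPM + 0.5) over the mean of the same genotype's control libraries for the 13 mt- members, in gene order, in each αMARCO library; red is WT, blue is Unc93b1 3d/3d, circles are replicate 1 and squares replicate 2. Both WT libraries are above 0 for every gene, and Unc93b1 3d/3d replicate 2 is highest at mt-Co2, mt-Co3, mt-Atp6 and mt-Nd6.

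Between WT and Unc93b1 3d/3d under αMARCO edgeR called 0 of 15722 genes, and DESeq2 called 215, of which 1 was an mt- member and 0 were nuclear members. The medians were 0.57 for the mt- and -0.48 for the nuclear members, and 2 of 13 and 1 of 81 had an unadjusted P of at most 0.05, beside 6.84% of tested genes. The groups lay apart with WT higher in 8 mt- and 2 nuclear members (23.9% of tested genes) and lower in 0 and 9 (19.7%). mt-Nd3 had the largest value, 3.00 and 4.5 CPM in WT and 0.133 and 0.274 CPM in Unc93b1 3d/3d (log2 fold change 4.22, SE 0.588, adjusted P = 0.241), from 62 and 115 counts against 3 and 4. Without Unc93b1 3d/3d αMARCO replicate 1, 62 nuclear members were called lower in WT (18.5% of tested genes), 9 mt- members higher (20.0%) and 2 lower. Without replicate 2, 5 mt- and 1 nuclear members were called higher (3.44%) and 0 lower.

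The difference between the αMARCO effects of the genotypes was tested as an interaction over all 8 libraries, and edgeR called 0 of 16620 genes while DESeq2 called 208, of which 0 were members. The medians of this difference, WT minus Unc93b1 3d/3d, were 0.62 for the mt- and -0.91 for the nuclear members, beside -0.04 over all genes. At an unadjusted P of at most 0.05 there were 32 of 82 nuclear and 2 of 13 mt- members, beside 15.3% of tested genes. mt-Co1 had a difference of 0.74 (SE 0.324, adjusted P = 0.324). Without Unc93b1 3d/3d αMARCO replicate 1, 68 nuclear members were called lower (17.9% of tested genes), 6 mt- members higher (18.5%) and 2 lower, and without replicate 2, 7 nuclear members were called lower (1.79%) and 0 mt- members. That the nuclear decrease in WT differs from Unc93b1 3d/3d was therefore not shown independently of 1 library.

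Other genes of the mitochondrion were read from lists of genes that serve the same complexes. In WT αMARCO 25 of 76 mitochondrial ribosomal proteins, which translate the mt- messages, were called lower and 0 higher (median log2 fold change -0.40), beside 11.8% of all tested genes called lower. The largest were Mrps12, Mrpl20 and Mrpl34, which fell by 0.95, 0.84 and 0.84. Of 46 assembly factors 10 were called lower and 1 higher (median -0.26), with Ndufaf8 and Pet100 falling by 0.91 and 0.81 and the copper chaperone Cox17 rising by 1.27 (SE 0.169, adjusted P = 0.000694). In the TCA cycle 3 of 18 genes were called lower (median -0.34), a share near that of all genes, namely Suclg2, Dlat and Suclg1, which fell by 0.73, 0.58 and 0.56. The ADP/ATP carriers Slc25a4 and Slc25a5, which export the ATP made by complex V, fell by 0.995 and 0.761 on the log2 scale and were the called genes among 9 carriers, uncoupling proteins and inhibitors.

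Of 26 genes that transcribe and process mitochondrial RNA 1 was called lower and 0 higher in WT αMARCO (median 0.04), beside 11.8% of all tested genes called lower. It was Hsd17b10, a part of mitochondrial RNase P, which fell by 0.61. Of 8 nuclear regulators tested 1 was called higher and 0 lower, beside 8.91% of all tested genes called higher. A single call among 8 genes is near that share and is no result about the regulators. It was Pprc1, a coactivator of the PGC-1 family, which rose by 0.63 (SE 0.104, edgeR adjusted P = 0.00204). In control TAMs, 11 of 76 mitochondrial ribosomal proteins, 2 of 46 assembly factors (Surf1 and Tmem70), 1 of 18 TCA cycle genes (Suclg2), and Slc25a4 and Slc25a5 were called higher in WT, and 0 genes of these lists were called lower. The counts of assembly factors and TCA cycle genes were below the 6.58% called higher among all genes. Their medians were 0.32 for the ribosomal proteins, 0.19 for the assembly factors and 0.28 for the TCA cycle, beside 0.41 for the nuclear members.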

How the data were processed

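RNA-seq was done on poly-A RNA of 8 libraries. The authors cleaned reads with fastp, aligned them to GRCm38 with HISAT2 2.0.5 and obtained gene counts with featureCounts 1.5.0, per the labels. The deposited tables hold the authors' raw counts, with no normalization, beside normalized counts, FPKM, fold changes and p-values of the authors' DESeq2 1.40.2 comparisons, which were not used. The strand setting was not given in the sources used here. The 3 tables were joined by gene identifier. No count held by more than 1 table differed (0 of 95230), and absent genes were set to 0.

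Counts were tested in R 4.3.3 with edgeR 4.0.16 (TMM, filterByExpr, robust quasi-likelihood test, Benjamini-Hochberg adjustment over all tested genes), with the 4 libraries of each comparison, or all 8 for the interaction. Calls needed adjusted P no higher than 0.05 and a log2 fold change of 0.5 or more in size. CPM use TMM factors over 8 libraries. Log2 ratios to controls add a pseudocount of 0.5 CPM. The procedure was tested on simulated data. Alternatives were DESeq2 1.42.0, its size factors, mt- genes left out of the scaling, no filter, at least 10 counts in every library, 1 model of all libraries, a replicate block, no fold threshold, correction for length and GC content (mgcv 1.9.3), and each library left out. A model without the Unc93b1 3d/3d αMARCO libraries, and mt- to nuclear ratios without mt-Co1 or without the copied stretch, were chosen after seeing the data.

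The members and lists were chosen with earlier results of these data known. Named are all mt- members, up to 5 called nuclear members per direction and comparison with the largest change and groups apart, the member with the highest level in each complex, isoforms, catalytic subunits, and up to 3 called genes per list. Sdhc and Cox6c were named after their values were seen. Copies of mt- genes were found by comparing GENCODE M21 transcripts. Promoter windows on chromosome 18 were not searched. Mature dendritic cell, T cell, NK cell, B cell, neutrophil, epithelial, fibroblast, endothelial, proliferation and macrophage markers were summed as a check. Amino acid sequences were not used here.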

Additional observations from a re-analysis of the deposited data

How the results depend on the processing

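In WT αMARCO TAMs the median of the nuclear members was below 0 and that of the mt- members above 0 under every alternative run. Without each library in turn, the median of the mt- members was 0.94 to 1.28 and that of the nuclear members -0.66 to -0.54. With all libraries in 1 model 4 mt- members were called higher and 0 nuclear members lower, among 164 of 16620 genes called. Without the Unc93b1 3d/3d αMARCO libraries in that model these counts were 10 and 54, among 3178 of 16326 genes called.

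In control TAMs the nuclear members called higher in WT were 0 with all libraries in 1 model, 51 with no fold threshold, and 8 to 25 without each library in turn, while 0 to 1 were called lower. Their median was 0.33 with the length and GC correction, with or without the replicate block, and the median of the mt- members turned to 0.08 in both fits, and was -0.13 to 0.05 without each library. Of the mt- members 1 was called higher with no low count filter, with the length and GC correction and replicate block, and in the model without the Unc93b1 3d/3d αMARCO libraries.

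In Unc93b1 3d/3d, 1 mt- member was called higher with no low count filter. Without each library, 0 to 7 mt- members were called higher, 0 to 52 nuclear members higher and 0 to 9 lower, and the nuclear median was -0.27 to 0.69. Between genotypes under αMARCO, 1 mt- member was called higher by DESeq2, with no low count filter, with all libraries in 1 model, with the replicate block, and with the length and GC correction and replicate block. Without each library, 0 to 9 mt- members were called higher and 0 to 2 lower, 0 to 1 nuclear members higher and 0 to 62 lower, and the nuclear median was -0.88 to 0.10. For the interaction these were 0 to 6 mt- members higher, 0 to 2 lower, 0 to 68 nuclear members lower, and a nuclear median of -1.31 to -0.35. The 52, 62 and 68 nuclear members and the 9 and 6 mt- members came without Unc93b1 3d/3d αMARCO replicate 1, and the 7 mt- and 9 nuclear members called in Unc93b1 3d/3d without replicate 2. The causes were not tested.

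Same-numbered replicates deviated with correlations of -0.0768 to 0.135 over 16620 genes, so no pairing was seen over genes as a whole. Whether they share a batch that touches few genes was not tested. With the replicate block 10 mt- members were called higher and 54 nuclear members lower in WT, among 3086 of 15630 genes called. In control WT TAMs 16 nuclear members were called higher with it, among 2395 of 15600 genes called. The log2 ratio of mt- to nuclear counts without mt-Co1, mt-Co2 and mt-Co3, or without mt-Co1 alone, differed by 1.76 between WT αMARCO and WT control and by -0.44 between WT and Unc93b1 3d/3d control. Among named genes not called, Atp5a1 and Cox4i2 turned to 0.05 and 0.01 in WT αMARCO with the length and GC correction, and Cox4i2 to 0.0 with the block as well. Without each library Atp5a1 ranged from -0.90 to 0.47, Cox4i2 from -0.29 to 0.10, Cox6b2 from -1.10 to 0.11 and Cox7b2 from -2.51 to 1.26, and in control TAMs Atp5a1 from -0.77 to 0.38 and Ndufs1 from -0.03 to 0.22. Of the called mt- members, mt-Nd3 lost its call under DESeq2 and the block, and mt-Atp8 and mt-Nd3 under the length and GC correction. Depth limits mt-Atp8, mt-Nd3 and the scarce isoforms.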
